A study of Homo sapiens with 15 samples.

Results

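The 8 genes described here are the human MHC class II genes HLA-DRA, HLA-DRB1, HLA-DPA1, HLA-DPB1, HLA-DMA and HLA-DMB, the invariant chain gene CD74 and their coactivator gene CIITA. They were taken by name from the 31352 genes of the count table, through the Ensembl identifiers of its rows, and all 8 were found and passed the filter on low counts. MHC class II molecules are pairs of an alpha and a beta chain that present peptides from the endocytic pathway to CD4+ T cells. Antigen-presenting cells make them constantly, whereas most epithelial and glial cells make them only after signals such as interferon-gamma, which switches on CIITA. CIITA does not bind DNA itself but is recruited to class II promoters by RFX, CREB and NF-Y proteins that are already in place.

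The study sequenced polyadenylated RNA from cells with a doxycycline-induced intracellular domain (NICD, the active fragment) of NOTCH1, NOTCH2, NOTCH3 or NOTCH4, and from isogenic cells with an empty vector (EV). Each of the 5 groups, NICD1, NICD2, NICD3, NICD4 and EV, had 3 libraries. The cell type field gives the colorectal carcinoma line HCT116, but the descriptions give the glioma line U373. No label gives the doxycycline dose or duration, whether EV cells received it, or whether replicates were separate cultures, so p-values measure only the spread between libraries.

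NICD4 replicate 1 is NICD4 by its title and description, but other fields of it say NICD3, so NICD4 results are given with and without it. In that library the astrocyte gene ALDH1L1 had 79 reads, near the 95 and 48 of the other NICD4 libraries and below the 442 to 821 of NICD3. ALDH1L1 is only 1 gene of the lists used here, and the identity of that library was not tested. Libraries held 11630195 to 27704492 counted reads. Read counts of the NOTCH genes did not mark their groups. NOTCH2 lay at 40.2 to 42.8 CPM in NICD2 and 30.3 to 32.9 CPM in EV, but also at 39.8 to 40.5 CPM in NICD4, and NOTCH3 lay at 11.5 to 11.9 CPM in NICD3 and 9.60 to 11.2 CPM in EV (CPM, counts scaled to library size with TMM factors). Every NICD1 and NICD4 library exceeded every NICD3 library for NOTCH3. NOTCH1 overlapped EV, at 26.9 to 30.2 CPM in NICD1 and 28.4 to 32 CPM in EV, and so did NOTCH4, at 1.81 to 2.22 CPM in NICD4 and 1.31 to 2.14 CPM in EV. HES1, a direct NOTCH target, stood at 37.5 CPM or more in every NICD library and at 20.1 CPM or less in every EV library. Group names therefore follow the labels. EPCAM, an epithelial surface gene, averaged 222, 280, 231 and 151 CPM in NICD1 to NICD4 and 152 CPM in EV. GFAP, the astrocyte filament gene, averaged 0.981 to 4.38 CPM in the NICD groups and 1.63 CPM in EV. Other listed markers of each type differed widely in reads over all libraries. Among epithelial markers KRT8 had 1930206, KRT18 had 617306, CDX2 had 10799 and CDH1 had 3327. KRT20 had 252 and VIL1 had 207, but CDH17 had 10, and LGR5 and CDX1 had 1 each. Among astrocyte and glioma markers SLC1A3 had 7558, NES had 7665 and ALDH1L1 had 2361. S100B had 31 and SLC1A2 had 14, but OLIG2 and AQP4 had 1 each. Which line was used was not tested.

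Relative to EV, the class II genes did not move as a block. HLA-DRA, HLA-DRB1, HLA-DPB1 and HLA-DMA rose in all 4 NICD groups. CD74 fell in all 4, and HLA-DPA1 fell in NICD1, NICD2 and NICD4. CIITA and HLA-DMB rose in NICD2, NICD3 and NICD4 but were not called in NICD1. A call is a limma adjusted p under 0.05 over the 15122 genes tested. In NICD1, 6 of the 8 genes were called (4 up, 2 down), where 75.4% of all tested genes were called (35.6% up, 39.8% down). In NICD2 all 8 were called (6 up, 2 down), against 59.5% of all genes (29.6% up, 29.9% down). In NICD3 7 were called (6 up, 1 down), against 69.2% of all genes (33.0% up, 36.2% down). In NICD4 8 were called (6 up, 2 down, and 6 in all without NICD4 replicate 1), against 80.9% of all genes (37.4% up, 43.6% down). Most genes were called in every comparison, so the number of members called is not in itself a result about the family. The same shares of all genes stand behind the counts of every list below from this fit. With library totals, 11794, 9508, 11272 and 12518 genes were called in NICD1 to NICD4. With the GC trend removed, 10404, 8783, 9755 and 11008 of 14737 genes were called. The shares up and down in those 2 fits are not given here, so list counts from them stand without that background. The median log2 change of the 8 genes was 0.25, 0.60, 0.95 and 1.10 in NICD1 to NICD4, against -0.08, -0.03, -0.07 and -0.12 over all tested genes. With library totals in place of TMM factors the median over all genes moved to -0.53, -0.31, -0.48 and -0.66, and that of the members to -0.17, 0.32, 0.57 and 0.57. The members then split 3 up and 3 down, 3 and 2, 4 and 1, and 4 and 2. HLA-DRA and CIITA passed the filter only through NICD libraries, and CD74 passed it through EV and 1 NICD3 library. The directions of these genes, and so the medians and splits, were partly set by the filter. In bulk RNA, a change in the share of cells that make a transcript and a change in RNA per cell cannot be told apart. Since the 4 comparisons share the EV libraries, their values are given side by side.

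**Figure D1:**
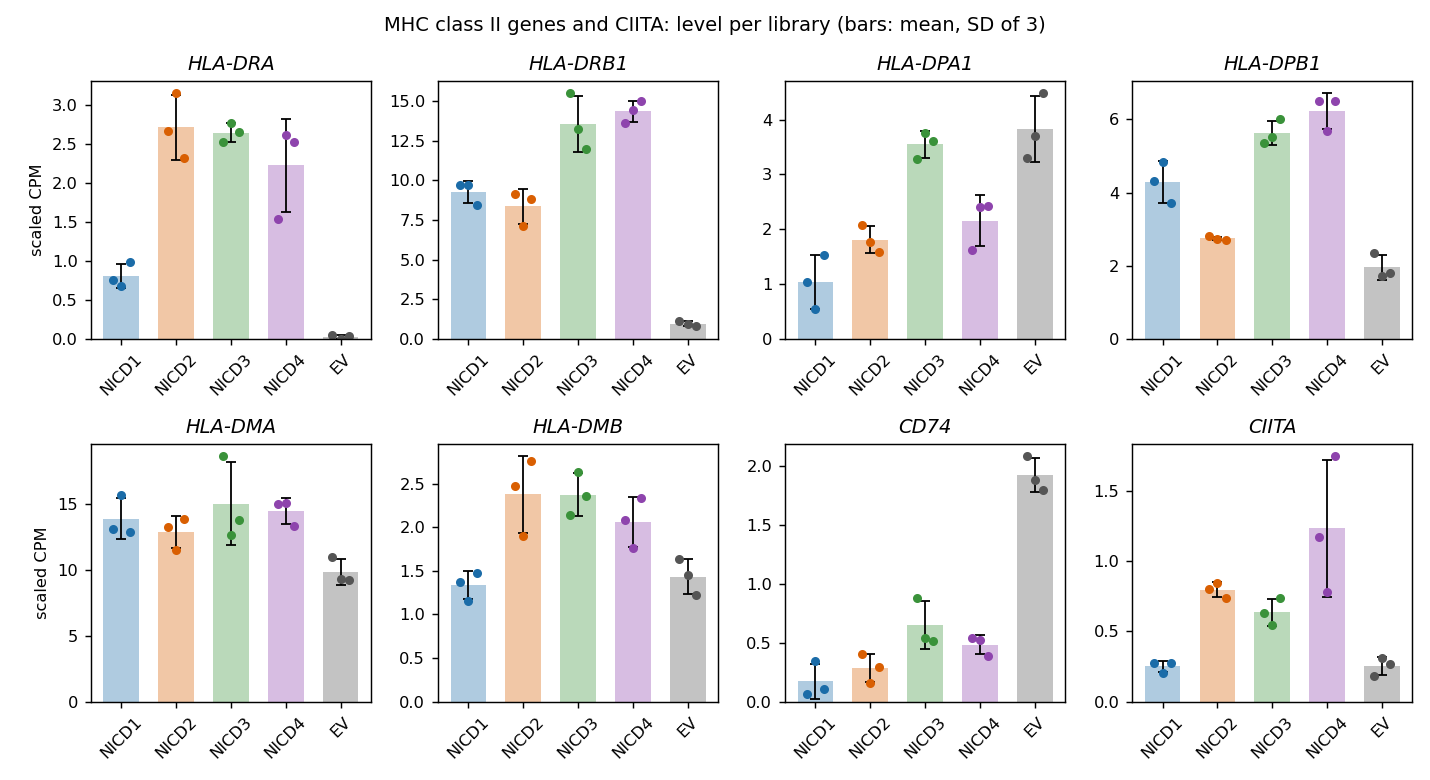
Level of each of the 8 genes in scaled CPM (vertical axis, from 0, a separate scale per gene) in the 4 NICD groups and EV. Points are the 3 libraries of a group, and bars and whiskers are their mean and SD. HLA-DRA and HLA-DRB1 are higher in every NICD library than in any EV library, and CD74 is lower in every one.

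Class II promoters carry a conserved module in which an X box, bound by RFX and CREB proteins, lies upstream of a Y box, bound by NF-Y. The promoter windows of RefSeq (GRCh38.p14, 250 bases before to 50 bases after the start) held entries for 6 of the 8 genes. HLA-DRA and CIITA were not among them. The letters ACNGATG of the X box and ATTGG of the Y box were searched on both strands, and both patterns were chosen after seeing the windows of these genes. Of 35114 windows in the table, 7.65% held ACNGATG, 34.6% held ATTGG and 0.137% held ACNGATG followed by ATTGG in the same orientation with 15 to 35 bases between them. Stretches of 100 bases are shown for 5 genes that rose or fell, because they let the module be compared between members with different changes, with every match to either pattern in capitals:
HLA-DRB1, chr6:32589889-32589988, minus strand: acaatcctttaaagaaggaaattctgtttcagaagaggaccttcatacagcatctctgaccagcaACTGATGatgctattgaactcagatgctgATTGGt
HLA-DMA, chr6:32953138-32953237, minus strand: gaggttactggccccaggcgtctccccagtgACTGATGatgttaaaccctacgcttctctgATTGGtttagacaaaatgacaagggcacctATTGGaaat
HLA-DMB, chr6:32941069-32941168, minus strand: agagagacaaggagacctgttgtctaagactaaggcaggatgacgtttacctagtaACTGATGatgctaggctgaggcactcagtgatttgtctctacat
HLA-DPB1, chr6:33075850-33075949, plus strand: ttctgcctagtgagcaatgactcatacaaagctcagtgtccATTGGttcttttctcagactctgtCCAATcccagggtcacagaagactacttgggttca
CD74, chr5:150412951-150413050, minus strand: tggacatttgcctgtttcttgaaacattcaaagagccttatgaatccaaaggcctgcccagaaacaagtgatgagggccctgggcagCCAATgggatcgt
Each stretch runs from 140 to 41 bases before the start. HLA-DRB1 held the ordered pair with 22 bases between the patterns, and HLA-DMA held it with 23 bases. HLA-DMB held ACNGATG with no ATTGG within that distance. HLA-DPB1 held ATTGG in each orientation and no ACNGATG, and CD74 held ATTGG in the reverse orientation, printed as CCAAT, and ACNGATG in that orientation outside the printed stretch. Neither of the 2 HLA-DPA1 windows held an exact match to either pattern. TGGGAA, the core letters of the RBPJ site through which NICD proteins act, was found in the windows of HLA-DMA and HLA-DMB and in 24.0% of all windows. A match describes letters in a window and is not a binding site. Only exact matches were sought, so a window without one may still hold a variant of either box, and its module is not shown to be absent.

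CIITA (ENSG00000179583; GRCh37 chromosome 16, 10971039 to 11023624) is the coactivator on which class II transcription depends. It stood at 0.275, 0.205 and 0.273 CPM in NICD1, 0.801, 0.847 and 0.740 CPM in NICD2, 0.630, 0.544 and 0.737 CPM in NICD3, 1.17, 0.782 and 1.75 CPM in NICD4, and 0.181, 0.308 and 0.268 CPM in EV. All 9 libraries of NICD2, NICD3 and NICD4 lay above all EV libraries, and NICD1 overlapped EV. The log2 change against EV was 0.01 ± 0.29 in NICD1 (SE; adjusted p = 0.985; 95% interval -0.62 to 0.63), 1.49 ± 0.29 in NICD2 (adjusted p = 0.000575), 1.18 ± 0.29 in NICD3 (adjusted p = 0.00233) and 2.02 ± 0.29 in NICD4 (adjusted p = 1.52e-05; 2.03 without replicate 1). CIITA was also higher in NICD2, NICD3 and NICD4 than in NICD1, by 1.48, 1.18 and 2.02 on the log2 scale (adjusted p = 0.00216, 0.0258 and 0.000252). The NICD3 difference from NICD1 lost its call when any NICD3 library or NICD1 replicate 1 or 2 was left out, with adjusted p up to 0.114, and with no filter or only those groups in the fit (0.0580 and 0.0526). NICD4 exceeded NICD3 by 0.84 (adjusted p = 0.0284), which was not called without NICD4 replicate 1 (adjusted p = 0.0697), without NICD4 replicate 3 or NICD3 replicates 1 or 2 (up to 0.131), with library totals (0.0612), with no filter (0.0859) or with only those groups in the fit (0.0777). These levels rest on 12, 48, 42, 43 and 21 reads in NICD1 to NICD4 and EV. CIITA passed the filter through NICD2, NICD3 and NICD4 alone, since no NICD1 or EV library reached its cut-off. Libraries of those groups therefore had to be higher than NICD1 and EV, and the direction of these differences was partly set by the filter. The CIITA span, introns included, overlaps that of DEXI on the opposite strand by 877 bases, and the strand use of the counting is not given in the sources used here.

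HLA-DRA (ENSG00000204287; GRCh37 chromosome 6, 32407619 to 32412823) encodes the single, nearly invariant alpha chain of HLA-DR. It had 11, 10 and 18 reads in NICD1 (0.756, 0.682 and 0.983 CPM), 40, 78 and 47 in NICD2 (2.67, 3.15 and 2.32 CPM), 40, 61 and 72 in NICD3 (2.52, 2.76 and 2.65 CPM), 17, 40 and 26 in NICD4 (1.54, 2.61 and 2.53 CPM), and 1, 0 and 1 in EV (0.0453, 0 and 0.0383 CPM). Every NICD library exceeded every EV library, and the 3 NICD1 libraries lay below all other NICD libraries. HLA-DRA passed the filter only through NICD libraries, so it had to differ from EV. With 2 reads in EV, the fitted log2 changes of 3.42, 5.11, 5.08 and 4.80 (all called; 5.07 in NICD4 without replicate 1) depend on the added constant. The ratio of summed reads to EV at equal depth was 33.1, 111, 107 and 91.2 in NICD1 to NICD4. The exact 95% binomial intervals, which cover counting error only, had lower bounds of 8.57, 30.2, 29.2 and 24.5. Among NICD groups HLA-DRA was higher in NICD2, NICD3 and NICD4 than in NICD1 by 1.69 ± 0.27, 1.66 ± 0.27 and 1.38 ± 0.27 (adjusted p = 0.000547, 0.00155 and 0.0028; 1.62 in NICD4 without replicate 1). NICD2, NICD3 and NICD4 were not called different from each other, and the 95% interval of NICD3 against NICD2 ran from -0.61 to 0.56.

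HLA-DRB1 (ENSG00000196126; GRCh37 chromosome 6, 32546546 to 32557625) encodes the main, highly polymorphic beta chain of HLA-DR. Its level was 9.69, 9.69 and 8.47 CPM in NICD1, 9.15, 7.10 and 8.83 CPM in NICD2, 15.5, 13.2 and 12 CPM in NICD3, 13.6, 14.4 and 15.0 CPM in NICD4, and 1.13, 0.925 and 0.804 CPM in EV. No NICD library came near EV, and the NICD3 and NICD4 libraries lay above all libraries of NICD1 and NICD2. Against EV it rose by 3.22, 3.07, 3.76 and 3.85 on the log2 scale in NICD1 to NICD4 (SE 0.14 each; adjusted p = 2.45e-10, 4.79e-10, 5.28e-11 and 6.76e-11; 3.88 in NICD4 without replicate 1). NICD3 exceeded NICD2 by 0.70 ± 0.14 (adjusted p = 0.00472) and NICD4 exceeded NICD2 by 0.78 ± 0.14 (adjusted p = 0.000375). Against NICD1 the differences were 0.54 in NICD3 (adjusted p = 0.0365, lost without any of the 6 NICD1 and NICD3 libraries, up to 0.12, and with no filter, 0.0611) and 0.63 in NICD4 (adjusted p = 0.00661). NICD2 against NICD1 was not called (-0.16, adjusted p = 0.408). By mean, NICD2 stood highest for HLA-DRA, not called apart from NICD3 and NICD4, and lowest of the NICD groups for HLA-DRB1, not called apart from NICD1.

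Class II genes differ between alleles and reads were aligned to 1 reference sequence, and the effect of the cells' own alleles on their levels was not tested. Reads may be split between HLA-DRB1 and its near-identical relatives, so its level is uncertain to that extent. HLA-DRB1 took 88.2 ± 4.55% of the reads of HLA-DRB1, HLA-DRB5 and HLA-DRB6 together in NICD1, 82.5 ± 5.68% in NICD2, 84.8 ± 3.49% in NICD3, 88.3 ± 4.15% in NICD4 and 76.1 ± 9.12% in EV (SD, n = 3). HLA-DRB5, a further DR beta chain gene, changed by 0.99, 1.83, 2.51 and 0.98 in NICD1 to NICD4 against EV (adjusted p = 0.0418 in NICD1 and 0.0405 in NICD4), but its NICD1 and NICD4 libraries overlapped EV and those calls were lost with library totals and with the GC trend removed. The pseudogene HLA-DRB6 changed by 2.34, 2.59, 2.75 and 3.18, all called. Both relatives were under the filter's cut-off in every EV library.

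HLA-DPA1 (ENSG00000231389; GRCh37 chromosome 6, 33032346 to 33048552), the HLA-DP alpha chain gene, was the member that ran against its partner. It stood at 1.03, 0.546 and 1.53 CPM in NICD1, 2.07, 1.78 and 1.58 CPM in NICD2, 3.27, 3.76 and 3.61 CPM in NICD3, 1.63, 2.41 and 2.43 CPM in NICD4, and 3.31, 3.70 and 4.48 CPM in EV. NICD1, NICD2 and NICD4 lay wholly below EV, and NICD3 overlapped it. The log2 change was -1.93 ± 0.28 in NICD1 (adjusted p = 2.41e-05), -1.06 ± 0.28 in NICD2 (adjusted p = 0.00496), -0.10 ± 0.28 in NICD3 (adjusted p = 0.762) and -0.82 ± 0.28 in NICD4 (adjusted p = 0.0142). The NICD4 call was lost without NICD4 replicate 1 (-0.64, adjusted p = 0.0625), without EV replicate 3 (adjusted p = 0.0596) and once each library's trend on transcript GC content was removed (-0.28, adjusted p = 0.305). HLA-DPA1 was higher in NICD3 than in NICD1 by 1.83 ± 0.28 (adjusted p = 0.000909) and than in NICD2 by 0.96 ± 0.28 (adjusted p = 0.0336, lost without any of the 6 libraries, up to 0.0964, and with library totals, 0.0930). NICD2 and NICD4 exceeded NICD1 by 0.87 and 1.11 (adjusted p = 0.0267 and 0.0116; 1.29 in NICD4 without replicate 1). Both calls were lost with only the 2 groups in the fit (adjusted p = 0.0799 and 0.112), and that of NICD2 without NICD1 replicate 2 or NICD2 replicates 1 or 2 (up to 0.138). NICD4 was lower than NICD3 by -0.72 (adjusted p = 0.0447), a call lost without NICD4 replicate 1 (-0.54, adjusted p = 0.168), in 11 other leave-one-out fits, with no filter and with the GC trend removed (-0.47, adjusted p = 0.126).

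HLA-DPB1 (ENSG00000223865; GRCh37 chromosome 6, 33043703 to 33054978), the HLA-DP beta chain gene, rose in all 4 groups. Its level was 4.33, 4.84 and 3.71 CPM in NICD1, 2.80, 2.74 and 2.71 CPM in NICD2, 5.35, 5.53 and 6.0 CPM in NICD3, 6.51, 5.67 and 6.51 CPM in NICD4, and 2.36, 1.73 and 1.80 CPM in EV. Every NICD library was above every EV library, and NICD2 lay below all other NICD libraries. The log2 change was 1.12, 0.49, 1.51 and 1.65 in NICD1 to NICD4 (SE 0.15 each; adjusted p = 8.47e-06, 0.00936, 6.17e-07 and 1.41e-07; 1.62 in NICD4 without replicate 1). The NICD2 call was lost with library totals (0.22, adjusted p = 0.184). NICD2 was lower than NICD1 by -0.62 (adjusted p = 0.00583), and NICD3 and NICD4 were higher than NICD2 by 1.02 and 1.16 (adjusted p = 0.000267 and 2.64e-05). NICD4 exceeded NICD1 by 0.54 (adjusted p = 0.0156), lost without NICD4 replicate 1 (0.0549), without NICD1 replicate 3 (0.0817), with no filter (0.0504) and with only those groups in the fit (0.0800). HLA-DPA1 and HLA-DPB1 lie on opposite strands, and their spans, introns included, overlap by 4850 bases. How much of that is exon in both genes was not measured. Without strand, reads in shared exon sequence cannot be told apart.

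The balance between partner chains was taken as the ratio of their CPM per kb of annotated exon. HLA-DPA1 to HLA-DPB1 was 0.233 ± 0.137 in NICD1, 0.600 ± 0.0719 in NICD2, 0.578 ± 0.0393 in NICD3, 0.320 ± 0.0824 in NICD4 and 1.84 ± 0.508 in EV (SD, n = 3). The highest NICD library, at 0.676, lay below the lowest EV library, at 1.29. HLA-DRA to HLA-DRB1 was 0.0847 ± 0.0235 in NICD1, 0.319 ± 0.0930 in NICD2, 0.190 ± 0.0298 in NICD3, 0.148 ± 0.0350 in NICD4 and 0.0280 ± 0.0246 in EV. All NICD2 libraries exceeded all libraries of the other groups for this ratio, and HLA-DRA stayed below HLA-DRB1 per kb in all 15 libraries. These ratios are a description and were not tested.

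**Figure D2:**
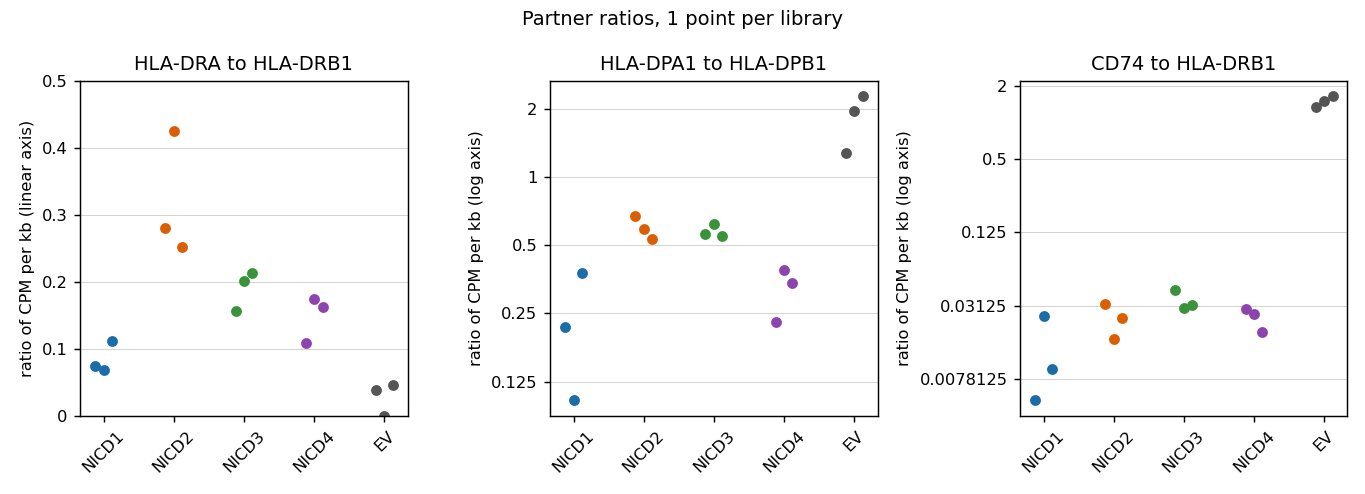
Ratios of CPM per kb between HLA-DRA and HLA-DRB1 (linear axis), HLA-DPA1 and HLA-DPB1, and CD74 and HLA-DRB1 (log axes) in the 4 NICD groups and EV, with 1 point per library. HLA-DPA1 to HLA-DPB1 is at most 0.676 in NICD libraries and at least 1.29 in EV libraries, and CD74 to HLA-DRB1 is at most 0.0418 against at least 1.35.

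CD74 (ENSG00000019582; GRCh37 chromosome 5, 149781200 to 149792492) encodes the invariant chain, which escorts new class II dimers and fills their groove until it is cut in the endosome. It stood at 0.0687, 0.341 and 0.109 CPM in NICD1, 0.401, 0.161 and 0.296 CPM in NICD2, 0.881, 0.544 and 0.516 CPM in NICD3, 0.542, 0.522 and 0.389 CPM in NICD4, and 2.08, 1.88 and 1.80 CPM in EV. The EV libraries were all above the NICD libraries, by more than the whole spread within any group. CD74 fell by 3.30 ± 0.40, 2.60 ± 0.40, 1.53 ± 0.40 and 1.88 ± 0.40 on the log2 scale in NICD1 to NICD4 (adjusted p = 4.4e-06, 7.5e-05, 0.00341 and 0.000506; -1.97 in NICD4 without replicate 1). The reads behind it were 8, 16, 40 and 18 in NICD1 to NICD4 and 154 in EV, and besides the EV libraries only 1 NICD3 library reached the filter's cut-off, so CD74 had to be higher in EV. Among NICD groups CD74 was higher in NICD3 and NICD4 than in NICD1 by 1.77 and 1.42 (adjusted p = 0.015 and 0.0187), and both calls were lost without NICD1 replicate 1 (adjusted p = 0.0734 and 0.0908) and with only those groups in the fit (0.0618 and 0.113). The NICD3 call was also lost without NICD3 replicate 1, and the NICD4 call without NICD1 replicate 3 or NICD4 replicate 1 (0.0605). The ratio of CD74 to HLA-DRB1 per kb was 0.0135 ± 0.0109, 0.0245 ± 0.00773, 0.0345 ± 0.00633 and 0.0249 ± 0.00525 in NICD1 to NICD4, against 1.5 ± 0.146 in EV (SD, n = 3).

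HLA-DMA (ENSG00000204257; GRCh37 chromosome 6, 32916390 to 32938493) and HLA-DMB (ENSG00000242574; GRCh37 chromosome 6, 32902406 to 32908847) encode the chains of HLA-DM, the endosomal editor that swaps the invariant chain fragment for antigenic peptide. HLA-DMA stood at 13.1, 15.7 and 12.8 CPM in NICD1, 13.3, 11.5 and 13.9 CPM in NICD2, 18.6, 12.6 and 13.8 CPM in NICD3, 15.0, 15.1 and 13.3 CPM in NICD4, and 11, 9.28 and 9.22 CPM in EV. All NICD libraries lay above EV, and the NICD groups overlapped each other. The log2 changes were small, at 0.49, 0.39, 0.59 and 0.56 (SE 0.14 each; adjusted p = 0.00523, 0.0268, 0.00167 and 0.00199; 0.52 in NICD4 without replicate 1). All 4 calls were lost with library totals, where the changes were 0.04, 0.11, 0.18 and 0.01, and the NICD2 call was lost without NICD2 replicates 1 or 3 or EV replicates 2 or 3, to adjusted p = 0.0975, and with no filter (0.0562). The HLA-DMA span, introns included, overlaps that of BRD2, which had 66109 reads in all, by 2057 bases on the opposite strand.

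HLA-DMB followed another pattern. Its level was 1.37, 1.16 and 1.47 CPM in NICD1, 2.47, 1.90 and 2.76 CPM in NICD2, 2.14, 2.63 and 2.36 CPM in NICD3, 2.08, 1.76 and 2.33 CPM in NICD4, and 1.63, 1.45 and 1.22 CPM in EV. NICD1 overlapped EV, and the other 3 NICD groups lay above it. Its log2 difference from EV was -0.10 ± 0.19 in NICD1 (adjusted p = 0.654), 0.70 ± 0.19 in NICD2 (adjusted p = 0.00572), 0.71 ± 0.19 in NICD3 (adjusted p = 0.00407) and 0.50 ± 0.19 in NICD4 (adjusted p = 0.0241). The NICD4 call was lost without NICD4 replicate 1 (adjusted p = 0.0541), NICD4 replicate 3 or EV replicate 3, with no filter (0.0939) and with only those groups in the fit (0.0611). With library totals none of these rises was called, the NICD4 value turned to -0.02, and NICD1 was called lower (-0.54). HLA-DMB exceeded its NICD1 level by 0.80 in NICD2, 0.81 in NICD3 and 0.60 in NICD4 (adjusted p = 0.00674, 0.0193 and 0.0313; 0.0849 without NICD4 replicate 1). The NICD3 call was lost without NICD1 replicates 1 or 2 or NICD3 replicates 2 or 3, to adjusted p = 0.0932. The NICD4 call was lost without any library of either group but NICD4 replicate 2, and with library totals, no filter, voom or only those groups in the fit, to 0.118.

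**Figure D3:**
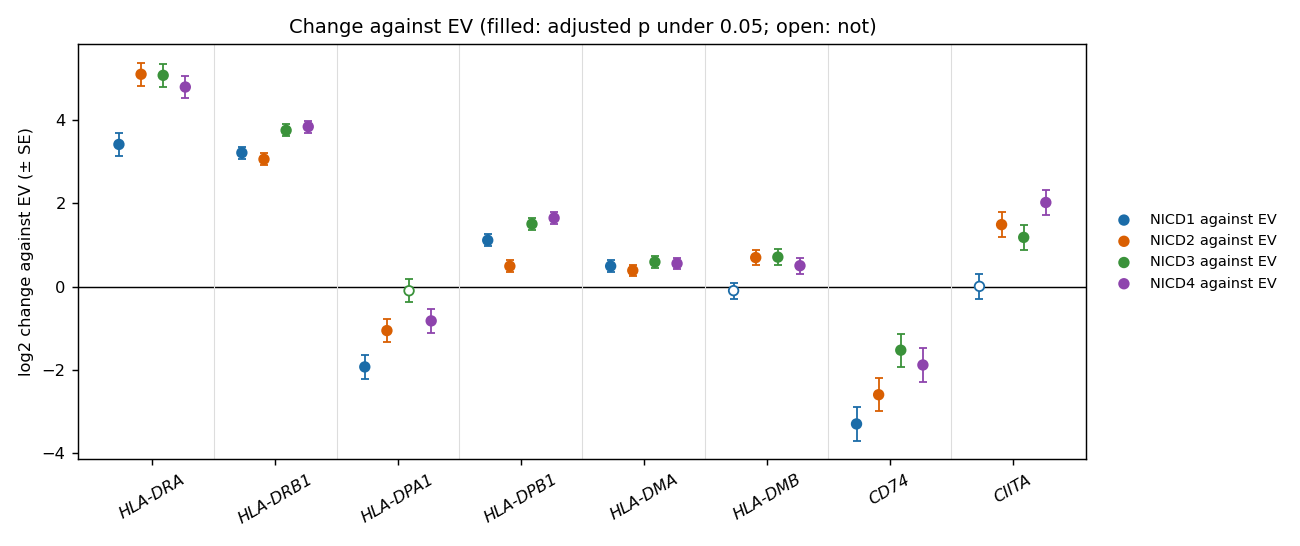
Log2 change of the 8 genes in each NICD group against EV (vertical axis), with SE, from the limma fit over 15122 genes. Filled points have an adjusted p under 0.05 and open points do not. HLA-DRA and HLA-DRB1 lie at 3.07 or more in all 4 comparisons, CD74 lies at -1.53 or less, and CIITA and HLA-DMB are open in NICD1 alone.

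The 4 NICD groups differed among themselves for 7 of the 8 genes in the F-test of the same fit, where 67.9% of all tested genes passed. HLA-DMA did not (adjusted p = 0.546). In pairs, NICD2 differed from NICD1 for 5 genes (37.2% of all genes), NICD3 from NICD1 for 6 (6.72%), NICD4 from NICD1 for 7 (27.2%; 4 without NICD4 replicate 1 or NICD1 replicate 3), NICD3 from NICD2 for 3 (15.0%), NICD4 from NICD2 for 2 (63.5%) and NICD4 from NICD3 for 2 (49.0%; 0 without NICD4 replicate 1). The NICD4 against NICD3 count was 0 or 1 without any single library other than NICD1 replicates 2 or 3 or NICD4 replicate 2. NICD3 against NICD1 held the largest gap between members and background among the 6 pairs, but the count was 2 without NICD1 replicate 1 and 3 without NICD1 replicate 2 or any of the NICD3 libraries. All 6 of its called members, HLA-DRA, HLA-DRB1, HLA-DPA1, HLA-DMB, CD74 and CIITA, were higher in NICD3, where 3.56% of all genes were called higher. Of these, CIITA passed the filter partly through NICD3 and through no NICD1 library, so its direction was partly set by the filter.

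Over the 15 libraries the log2 level of HLA-DRA had a Pearson r of 0.934 with HLA-DRB1, 0.718 with CIITA and -0.624 with CD74, and HLA-DRB1 had an r of 0.863 with HLA-DPB1 and -0.402 with HLA-DPA1. The libraries fall into 5 groups, with EV apart, so these values describe mainly the group means. Outside the lists used here, the genes most like HLA-DRB1 among 12501 were MT1F (r = 0.991), SLC22A18 (0.989), AP1M2 (0.988), TMEM125 (0.987) and ASS1 (0.985). Among those most like CIITA were COL18A1 (0.897), PKNOX1 (0.894), PLEKHB1 (0.873) and MORC2 (0.868).

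The genes of the proteins that hold CIITA on class II promoters changed in both directions. RFX5, the DNA-binding subunit of RFX, stood at 9.0, 7.98 and 10.8 CPM in NICD1, 10.5, 12.2 and 9.86 CPM in NICD2, 10.3, 12.2 and 10.5 CPM in NICD3, 8.58, 8.48 and 5.83 CPM in NICD4, and 19.1, 30.0 and 24.2 CPM in EV. It lay below EV in every NICD library, with log2 changes of -1.38, -1.15, -1.13 and -1.67, all called. RFXAP, its partner subunit, fell in all 4 groups too (-1.09, -0.70, -1.20 and -2.00), as did the NF-Y subunit NFYA (-1.04, -0.99, -1.07 and -1.36). RFXANK, the third RFX subunit, rose in all 4 (1.05, 0.85, 1.23 and 1.57). Of the 8 listed factors, 2, 2, 2 and 1 rose and 6, 4, 5 and 6 fell in NICD1 to NICD4, with median changes of -0.47, -0.31, -0.44 and -0.76 beside those over all genes given above. NICD4 counts were the same without replicate 1. With the GC trend removed 3 rose and 3 fell in each comparison, the medians turned to 0.17, 0.05, 0.15 and 0.04, and RFX5, RFXAP, NFYA and RFXANK kept their signs in all 4. With library totals 1 rose in each comparison, and 7, 5, 6 and 7 fell.

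**Figure D4:**
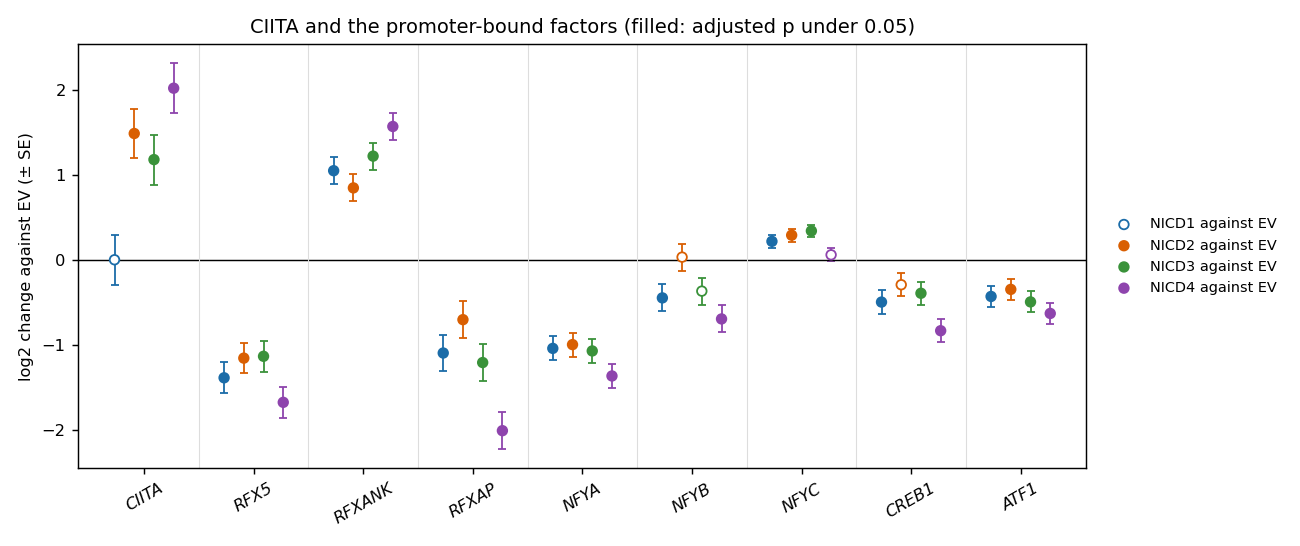
Log2 change against EV, with SE, of CIITA and the 8 listed factors that bind class II promoters, in the 4 NICD groups. Filled points have an adjusted p under 0.05 and open points do not. RFX5, RFXAP and NFYA lie below 0 and RFXANK lies above 0 in all 4 comparisons, whereas CIITA is near 0 in NICD1 alone.

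Among 10 chromatin partners of CIITA, 1 rose in each comparison and 7, 3, 4 and 7 fell in NICD1 to NICD4 (6 fell in NICD4 without replicate 1), with medians of -0.47, -0.19, -0.49 and -0.80. With library totals 1, 0, 0 and 1 rose and 9, 6, 9 and 9 fell. The rising gene was CARM1, an arginine methyltransferase (0.78, 0.46, 0.44 and 1.15). With the GC trend removed its changes were 0.11, 0.11, -0.09 and 0.22 and none was called, and 7, 5, 5 and 8 of the partners fell. EZH2, a repressive histone methyltransferase, fell in all 4 (-0.80, -0.57, -0.50 and -1.03). HDAC2, a histone deacetylase, fell in NICD1 (-1.15) and NICD4 (-2.45) but was not called in NICD2 (-0.31) or NICD3 (-0.49).

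In the interferon-gamma route to CIITA, more of the tested genes were called lower than higher in each NICD group. Of all tested genes, 39.8%, 29.9%, 36.2% and 43.6% were called lower and 35.6%, 29.6%, 33.0% and 37.4% higher. Of its 14 listed genes 13 were in the table and 10 were tested, of which 2, 1, 2 and 2 rose and 6, 5, 5 and 6 fell in NICD1 to NICD4 (4 rose in NICD4 without replicate 1), with medians of -0.49, -0.30, -0.24 and -0.83. With library totals 0, 0, 0 and 1 rose and 8, 5, 6 and 7 fell. With the GC trend removed 1, 1, 1 and 2 rose and 6, 3, 3 and 6 fell, with medians of -0.39, -0.20, -0.17 and -0.57. JAK2, a kinase gene of the interferon-gamma receptor pathway, averaged 2.00, 3.32, 2.06 and 1.77 CPM in NICD1 to NICD4 and 5.14 CPM in EV, and fell by 1.34, 0.62, 1.31 and 1.53, with the NICD2 call lost once the GC trend was removed (-0.31). IRF1, which acts on a CIITA promoter, passed the test only for NICD2 (0.38, adjusted p = 0.00895). With library totals that call was lost (0.10), and IRF1 was called lower in NICD1 (-0.50) and NICD4 (-0.43). JAK1 rose in NICD1, NICD3 and NICD4 (0.46, 0.66 and 0.36), but was called in none with library totals, where NICD4 turned to -0.18. IRF8 had 0 reads in all NICD libraries and 1 read in each EV library. PRDM1, a repressor of CIITA in plasma cells, was too low to test, with 6, 24, 32 and 11 reads in NICD1 to NICD4 and 2 in EV. IFNG was not among the genes of the count table.

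Other interferon-gamma response genes that were tested did not rise as a group. Of 15 listed, 7 were tested, and 3, 3, 2 and 4 rose and 2, 3, 1 and 2 fell, with medians of 0.16, 0.23, 0.09 and 0.48 (2, 2, 1 and 2 rose and 3, 3, 3 and 2 fell with library totals). With the GC trend removed the medians turned to -0.24, -0.0031, -0.24 and -0.06, and 3, 2, 2 and 3 rose and 3, 3, 3 and 2 fell. PSMB9, an immunoproteasome subunit whose gene lies in the class II region, rose by 1.62, 1.09, 2.47 and 2.43. Its neighbour TAP1, a peptide transporter gene, fell by 0.43, 0.49, 0.42 and 0.46. NLRC5, the class I counterpart of CIITA, rose in NICD1 (1.06) and NICD4 (1.11) and was not called in NICD2 (0.23) or NICD3 (0.42). Among the untested genes, GBP1 and CXCL9 had at most 3 reads in any group. GBP2 had 3, 1, 16 and 5 reads in NICD1 to NICD4 and 2 in EV. GBP4 and GBP5 had 36 and 16 reads over all libraries.

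Genes that process class II cargo moved in both directions. Of 10 tested, 4, 5, 4 and 5 rose and 5, 2, 3 and 4 fell, and with library totals 4, 3, 3 and 3 rose and 6, 3, 6 and 7 fell. The medians were -0.21, 0.24, -0.01 and 0.08, and 0.07, 0.15, 0.19 and -0.03 with the GC trend removed. IFI30, the lysosomal thiol reductase of antigen processing, averaged 246, 195, 231 and 272 CPM in NICD1 to NICD4 and 102 CPM in EV and rose by 1.27, 0.94, 1.18 and 1.42. CTSD, an aspartic protease, rose by 1.84, 1.27, 1.31 and 2.25. The ubiquitin ligase gene MARCH8 fell by 0.69, 0.67, 0.77 and 0.72, and MARCH1, which turns over surface class II in antigen-presenting cells, fell by 1.80, 1.31 and 1.03 in NICD1, NICD3 and NICD4 and was not called in NICD2 (-0.55), or in NICD4 with the GC trend removed (-0.25). CTSS, the protease that trims the invariant chain in such cells, had at most 15 reads in any library and was not tested.

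CD74 also serves as a surface receptor for the cytokine MIF, and the genes of that complex were followed too. CXCR4, a chemokine receptor that pairs with CD74, had 20, 16 and 25 reads in NICD1, 19, 32 and 24 in NICD2, 29, 36 and 36 in NICD3, 14, 26 and 16 in NICD4, and 6, 4 and 3 in EV, and rose by 2.63, 2.60, 2.93 and 2.85. It passed the filter only through NICD libraries, so it had to differ from EV. The signalling partner CD44 rose in NICD1, NICD3 and NICD4 (1.49, 0.54 and 0.29, the last -0.25 with library totals) and fell in NICD2 (-0.40). MIF itself rose in NICD1, NICD2 and NICD3 (1.00, 0.78 and 0.76), which shrank to 0.03, 0.28 and 0.01 with the GC trend removed. In this list of 4 tested genes, 4, 3, 4 and 3 rose and 0, 1, 0 and 0 fell, with medians of 1.42, 0.86, 0.91 and 0.68, and with library totals 4, 2, 2 and 2 rose.

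Among further class II genes, 7 of 9 were in the table and 3 were tested. HLA-DOA, the alpha chain of the HLA-DM inhibitor HLA-DO, rose in NICD1, NICD3 and NICD4 (1.42, 1.78 and 2.29) and was not called in NICD2 (0.72, adjusted p = 0.11). Its partner HLA-DOB was called in none of the comparisons. HLA-DQB1, too low to test, had 9, 23, 28 and 12 reads in NICD1 to NICD4 and 4 in EV, and HLA-DQA1 had at most 2 reads in any library. HLA-DRB3 and HLA-DRB4 were not among the genes of the count table.

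MHC class I genes, which present peptides from inside the cell, were compared as the nearest relatives. Of 9 tested, 7, 4, 7 and 7 rose and 1 fell in each comparison, with medians of 0.78, 0.26, 0.95 and 1.14, and with library totals 6, 2, 7 and 5 rose and 2, 3, 2 and 2 fell. The shared light chain gene B2M fell by 1.06, 0.76, 0.69 and 1.68. With the GC trend removed 5, 3, 7 and 5 class I genes rose, with medians of 0.40, 0.03, 0.63 and 0.44, and the B2M call in NICD3 was lost (-0.24). Of 4 tested costimulation genes, 1 rose in each comparison and 0, 1, 1 and 1 fell (3, 1, 2 and 3 with library totals). ICOSLG, a ligand for a T-cell costimulatory receptor, rose by 1.24, 0.78, 0.91 and 2.09, whereas CD80 and CD86, the classical costimulatory ligands, had at most 2 reads in any group.

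Markers of antigen-presenting cells moved in both directions. Of 13 listed, 12 were in the table and 6 were tested, of which 3, 3, 2 and 3 rose and 2, 3, 3 and 2 fell in NICD1 to NICD4, and their summed level ran from 5.52 to 5.80 CPM in NICD1, 4.48 to 5.43 CPM in NICD2, 5.35 to 6.16 CPM in NICD3, 6.52 to 10.3 CPM in NICD4 and 11.6 to 12.4 CPM in EV. The B-cell marker MS4A1 had 1 read in all 15 libraries together, and the macrophage marker CD163 had at most 5 in any group. CSF1R, the macrophage growth factor receptor, had 0 to 5 reads in every NICD library and 107 to 174 reads in each EV library, and TYROBP, a myeloid signalling adaptor, had 0 or 1 read in each NICD library and 4 to 10 in each EV library. CD74 and CSF1R were both lower in all NICD libraries than in EV. CSF1R passed the filter only through EV libraries and CD74 nearly so, and both had to be higher in EV. Without CSF1R and CD79B the markers summed to 3.89 to 4.26 CPM in NICD1, 3.71 to 4.39 CPM in NICD2, 3.65 to 4.67 CPM in NICD3, 4.76 to 7.59 CPM in NICD4 and 2.90 to 3.37 CPM in EV. For that sum every NICD library lay above every EV library, the reverse of the sum over all markers. Both markers left out were called lower in NICD1 (-5.74 for CSF1R and -1.12 for CD79B). The reversal was therefore partly set by the choice of markers left out. The part of these markers in the class II and CD74 changes was not tested, and PTPRC was not among the genes of the count table.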

How the data were processed

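RNA was sequenced as polyadenylated RNA with the TruSeq version 2 kit, per the labels' protocols. Reads were aligned with TopHat2 2.0.6 to GRCh37 and counted with HTSeq, per the submitters' processing notes. The authors deposited log2 of the read count per gene plus 1, unscaled, per the file headers and the values: undoing the logarithm gave whole counts within 0.001 for 100% of values. Tested were the 15122 genes that reached 0.548 CPM (10 reads at median depth) in 3 libraries and 15 reads in all. Recovered counts were scaled by TMM factors, 1 was added (0.0544 CPM), and log2 values were fitted in limma 3.58.1 (R 4.3.3, statmod 1.5.0; trended, robust prior) with 1 mean per group over 15 libraries. Fold changes near that level are understated. P-values are two-sided, with Benjamini-Hochberg adjustment over all tested genes. Exon length and GC content (known for 97.45% of tested genes) came from GENCODE 29. The same replicate numbers did not pair the libraries. The members, gene lists and naming rule (list genes, plus 5 genes most like HLA-DRB1 and 5 most like CIITA) were chosen with earlier results of these data known; some genes that the rule allows are not reported here. Alternatives covered scaling, filters, the added constant, voom, the prior, the groups fitted, a replicate block, GC content and each library left out.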

Additional observations from a re-analysis of the deposited data

How the results depend on the processing

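The number of members called against EV was within 1.5 times its value under all alternatives except library totals in NICD2 (5). Between NICD groups, NICD4 against NICD1 gave 3 when only the groups compared were fitted, and NICD4 against NICD3 gave 1 with library totals, with at least 1 CPM in 3 libraries (a filter that drops CIITA), with the GC trend removed and with only the groups compared, and 0 with no filter. The cause was not tested. Leaving out each library in turn, the genes called against EV numbered 10505 to 11746 (NICD1), 7535 to 9625 (NICD2), 9302 to 10926 (NICD3) and 11633 to 12277 (NICD4). The members called were then 6, 7 to 8, 7 and 6 to 8 against EV, 4 to 5 for NICD2 against NICD1, 2 to 6 for NICD3 against NICD1, 4 to 7 for NICD4 against NICD1, 2 to 4 for NICD3 against NICD2, 2 to 3 for NICD4 against NICD2, 0 to 2 for NICD4 against NICD3, and 7 in the F-test.

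Of the 80 member changes, 80 kept direction and call under size factors, either other added constant, no robust prior and the replicate block, 79 under voom, 73 with the GC trend removed, 71 with no filter, 71 with only the groups compared and 60 with library totals. Of the changes whose sign turned, only HLA-DMB in NICD4 against EV had been called (-0.024 with library totals). CIITA in NICD1 against EV turned to -0.37 with library totals, -0.017 with no filter and -0.16 with the GC trend removed. With the GC trend removed, HLA-DMB in NICD1 and HLA-DPA1 in NICD3 against EV turned to 0.016 and 0.19, HLA-DRA in NICD3 against NICD2 to 0.019 and HLA-DRB1 in NICD4 against NICD3 to -0.050. With library totals, HLA-DRB1 and HLA-DMA in NICD2 against NICD1 turned to 0.018 and 0.070, HLA-DMA in NICD4 against NICD1 to -0.024, HLA-DMB in NICD3 against NICD2 to -0.12, HLA-DPA1 and HLA-DMA in NICD4 against NICD2 to -0.021 and -0.094, and HLA-DRB1 in NICD4 against NICD3 to -0.037. Without single libraries, against EV, CIITA in NICD1 ran from -0.17 to 0.14, HLA-DMB in NICD1 from -0.20 to 0.00015 and HLA-DPA1 in NICD3 from -0.19 to 0.021. HLA-DMA ran from -0.065 to 0.21 in NICD3 against NICD1 and from -0.15 to 0.13 in NICD4 against NICD3. In NICD3 against NICD2, HLA-DRA ran from -0.13 to 0.085 and HLA-DMB from -0.14 to 0.13.

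Of 30 same-numbered pairs of libraries, 13 deviated together with a correlation over 0.1 (range -0.43 to 0.36), so the numbers do not pair them; with the replicate number as a block the members called against EV stayed at 6, 8, 7 and 8. Depth limits CIITA, CD74 and HLA-DRA in EV.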
